A study of Mus musculus with 2 samples.

Results

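Liver endothelial cells, the cells that line the vessels of the liver, were taken from 2 single-cell RNA libraries of dissociated mouse liver. A cell was taken when it carried at least 4 UMIs (unique molecular identifiers, each standing for 1 captured transcript) over Kdr, Ptprb, Clec4g, Gpihbp1, Igfbp7 and Egfl7, from at least 2 of these genes. C1qa, C1qb and C1qc had to stay under 1% of its UMIs, and Alb, Apoa1, Apoa2, Apoc1, Ttr, Fabp1 and Trf under 2%. Barcodes below 500 UMIs or 200 genes, or above 20% mitochondrial UMIs, had been dropped first. The rule took 90 of 662 kept cells of the GS-KO library and 110 of 3275 of the control library, 200 of 3937 in all. The GS-KO library came from 1 mouse with floxed Glul, the gene of glutamine synthetase (GS), that had received Cre recombinase in AAV8, a viral vector that in the mouse liver infects mainly hepatocytes. The control library came from 1 mouse with the same floxed alleles that had received GFP in AAV8. Both mice bore liver tumours and were used 7 weeks after the virus. The series concerns β-catenin-mutant hepatocellular carcinoma, but the sources used here do not say for a cell whether it lay in tumour or in surrounding liver, nor which promoter drove Cre.

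Both suspensions had been enriched for cells carrying F4/80, a macrophage surface protein, and cleared of dead cells. Endothelial cells made up 13.6% of the kept GS-KO cells (exact 95% binomial interval 11.1 to 16.4) and 3.36% of the kept control cells (2.77 to 4.03), shares of what this enrichment left and not of the liver. With 1 mouse and 1 library in each group no difference between groups could be tested. The intervals given here cover counting error only, and a difference between libraries cannot be told apart from a difference between mice, cell isolations or sequencing runs. The deposited matrices held 1366 barcodes for GS-KO and 5074 for control, against at least 7500 cells aimed for. The endothelial cells held 657096 UMIs in GS-KO and 616213 in control, with medians of 5532.5 UMIs a cell in GS-KO and 3953.5 in control. No endothelial barcode was found in both libraries, and Scrublet, a doublet caller, marked 2 GS-KO and 1 control endothelial cell, which were kept. Glul checked the labels: in cells rich in hepatocyte RNA it stood at 145 CPM (UMIs of the gene per 1000000 UMIs of those cells) in GS-KO and 3049 CPM in control, though the sources used here do not say which part of Glul is removed.

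Most endothelial cells of the liver are sinusoidal. They form a perforated lining without a continuous basement membrane between the blood and the hepatocytes, and clear proteins, immune complexes and debris through scavenger and lectin receptors such as Stab1, Stab2, Mrc1, Fcgr2b and Clec4g. Their genes change along the blood path from portal to central vein: Dll4 and Efnb2 mark the portal side, and Wnt2 and Rspo3, ligands that set the pericentral programme of hepatocytes, the central side. Portal and central veins, hepatic arteries and lymphatics have endothelium of their own. Capillaries of other organs, and vessels of many tumours, use Plvap and Cd34, and Esm1, Angpt2 and Apln mark the tip cells at the front of a growing vessel.

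The choice of cells rested on the 6 genes named above, so their levels describe the cells and test nothing. Summed over the endothelial cells, Kdr, the main VEGF receptor, stood at 1324 CPM in GS-KO and 1772 CPM in control. Clec4g, a sinusoidal lectin, stood at 1820 CPM in GS-KO and 2459 CPM in control, and Gpihbp1, which anchors lipoprotein lipase to the capillary wall, at 3354 CPM in GS-KO and 2801 CPM in control. Within clusters 1, 4, 5 and 6 of the cells, which are described with the tip cell genes, the log2 ratio of Clec4g, GS-KO over control, was 0.045. All 6 genes were detected in 56 of the 90 GS-KO cells and 72 of the 110 control cells. The median cell held 73 UMIs of them in GS-KO and 51 in control, so most cells lay far from the limit. With 4 or 5 such UMIs, 3 GS-KO and 5 control cells lay just inside it, and with 2 or 3, 7 GS-KO and 4 control cells lay just outside. Among cells that met the gene limit, the macrophage cut-off left out 4 in GS-KO and 37 in control, and the hepatocyte cut-off 1 in GS-KO and 11 in control.

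Genes outside the rule bore out the label for most cells. Pecam1 or Cdh5, adhesion proteins of endothelial junctions, was detected in 78 GS-KO and 93 control cells. The genes with the highest level relative to all other kept cells, by the smaller of the 2 libraries' folds, began with Fabp4, a fatty acid carrier of capillaries, at 84.6-fold, and included Bmp2, Gpr182, Lyve1, Eng, Stab2, Oit3 and Cldn5. Selection and ranking used the same cells, so these folds carry no test.

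A few cells stood apart and bear on the results. A set of 4 cells, 3 in GS-KO and 1 in control, met the rule almost through Igfbp7 alone, with 10 to 121 UMIs of it and at most 2 of the other 5 rule genes. They had no UMI of Pecam1 or Cdh5, and 2.28% to 7.32% of their UMIs came from stellate cell and fibroblast genes such as Dcn, Col3a1 and Col1a1. The GS-KO ones held 67.5% and the control one 86.5% of all such UMIs among the endothelial cells of their library. The 2 deepest GS-KO cells, with 63932 and 53715 UMIs, held 17.9% of the UMIs of the 90 cells, against 8.94% in the 2 deepest control cells. The deeper one carried arterial genes: 79 of the 80 Sema3g UMIs, all 41 of Gja5 and 36 of 42 of Hey1 among the GS-KO cells were its own, and it held no Stab2 UMI. The other held 341 of the 570 Igfbp3 UMIs. Many results below are therefore also given without these 6 cells, the 4 led by Igfbp7 and the 2 deepest of GS-KO. A result given only over all cells is not thereby said to hold without them. Leaving out the 6 does not remove every cell poor in vessel RNA. A GS-KO cell with 11151 UMIs gave 4.48 of every 10000 to sinusoidal genes outside the rule and 8.97 to tip and capillary genes. That cell held 96.5% of the GS-KO UMIs of T and NK cell genes. A GS-KO cell with 4669 UMIs gave 8.57 and 2.14, and a control cell with 5380 UMIs gave 18.6 and 3.72.

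Sinusoidal genes were detected in nearly every cell. Over 18 sinusoidal genes outside the rule, 85 of 90 GS-KO cells (94.4%, exact 95% binomial interval 87.5 to 98.2) and 108 of 110 control cells (98.2%, 93.6 to 99.8) had at least 4 UMIs from at least 2 genes. This limit was not scaled to depth, so meeting it does not make a cell sinusoidal. The control cell led by Igfbp7 held 6 UMIs of these genes among its 11341, beside 698 of stellate cell and fibroblast genes. The median cell gave these genes 159 of every 10000 UMIs in GS-KO and 156 in control, ranging over 0 to 428 in GS-KO and 5.29 to 381 in control. The 2 libraries thus overlapped along the whole range. Stab2, the hyaluronan-clearing receptor, stood at 839 CPM in GS-KO and 759 CPM in control. When every cell was thinned to 1000 UMIs, which kept 81 GS-KO and 103 control cells, Stab2 was seen in 50.6% of the GS-KO and 50.5% of the control cells. No B cell of either library, picked by its own genes and thinned the same way, held a Stab2 UMI.

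**Figure D1:**
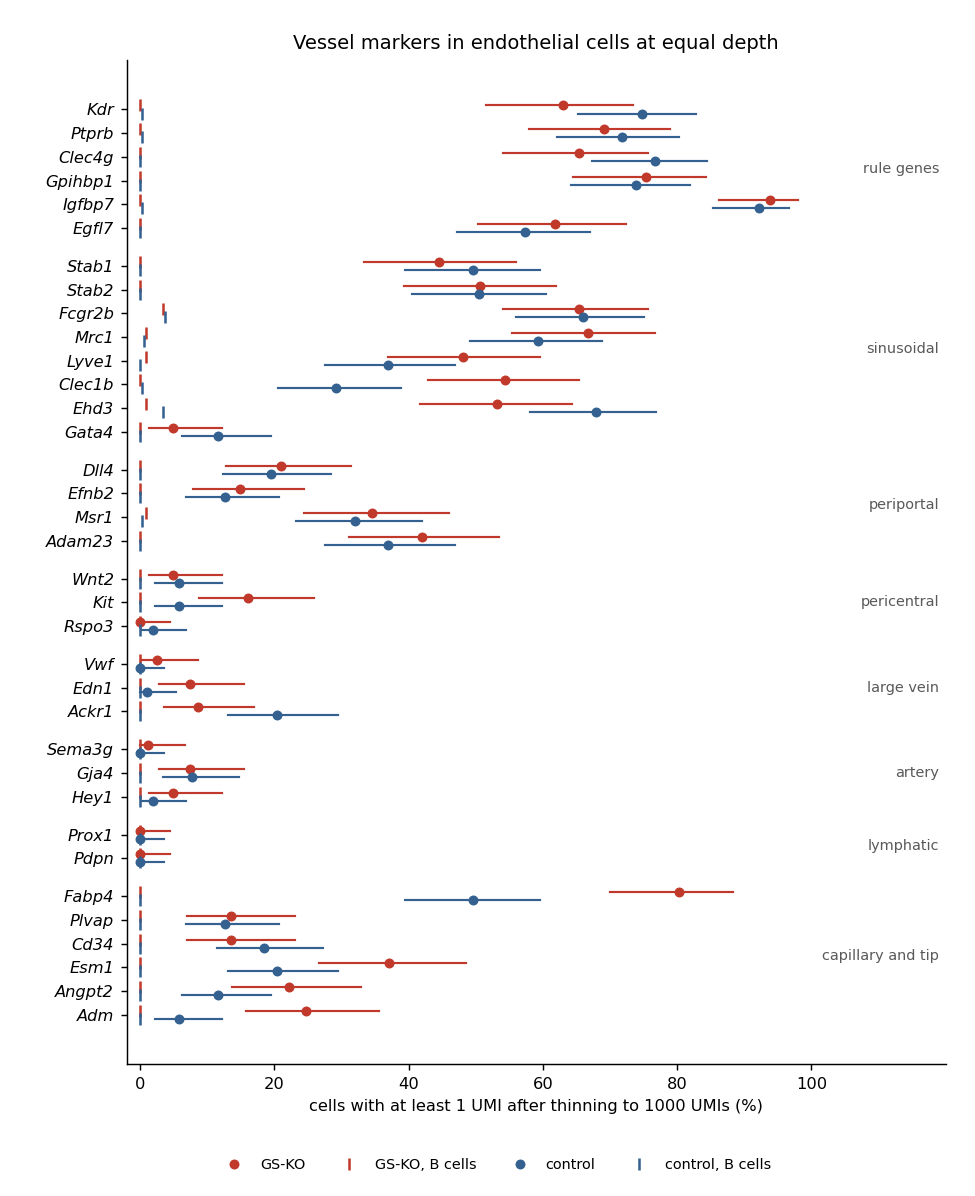
Points give the share of endothelial cells with at least 1 UMI of each gene after thinning to 1000 UMIs, in percent, for GS-KO (red, 81 cells) and control (blue, 103 cells). Lines are exact 95% binomial intervals, and upright ticks show B cells of the same library. Stab2 lies far right of its B cell ticks, at 50.6% in GS-KO and 50.5% in control, while Prox1 and Pdpn lie at 0. Fabp4, Clec1b and Adm show GS-KO above control with intervals that do not overlap.

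Single sinusoidal genes stood apart in both directions. Folds are the GS-KO level over the control level, with 95% conditional binomial intervals for the counts. Of the 7148 genes with at least 20 UMIs in the endothelial cells, 12% were at least 1.5-fold higher in GS-KO and 13.8% at least 1.5-fold lower. Of the 19 sinusoidal genes measured, 2 were that much higher and 2 lower, and the median log2 ratio was -0.09, beside -0.02 over all genes. These 19 include the rule genes Clec4g and Gpihbp1, so the median rests in part on genes that picked the cells. Neither of them was 1.5-fold apart. Lyve1, a hyaluronan receptor of midlobular sinusoids, stood at 1504 CPM in GS-KO and 870 CPM in control (1.73-fold, 1.55 to 1.92), with UMIs in 57 cells of each. Clec1b, a lectin receptor, stood at 697 CPM in GS-KO and 456 CPM in control (1.53-fold, 1.31 to 1.78). Its share of thinned cells was 54.3% in GS-KO and 29.1% in control. Ehd3, a membrane trafficking protein, stood at 834 CPM in GS-KO and 1574 CPM in control, a ratio of 0.53 (0.476 to 0.589). Gata4, a transcription factor that sets sinusoidal identity, stood at 51.7 CPM in GS-KO and 127 CPM in control, a ratio of 0.409 (0.265 to 0.619), from 34 GS-KO and 78 control UMIs. Fcgr2b, an immune complex receptor, stood at 1452 CPM in GS-KO and 1449 CPM in control. Stab1, Dnase1l3 and Mrc1 had ratios of 0.795, 0.744 and 1.05, and within clusters 1, 4, 5 and 6 Dnase1l3 had a log2 ratio of 0.047. Without the 6 cells the ratio of Lyve1 was 2, that of Ehd3 0.624 and that of Gata4 0.502, and the group's median log2 ratio was 0.17.

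Genes of the portal side and of the central side were both present. Dll4, the Notch ligand of the portal side and of arteries, stood at 216 CPM in GS-KO and 316 CPM in control (ratio 0.683, 0.546 to 0.852), with UMIs in 51 GS-KO and 53 control cells. Efnb2, an arterial and periportal ephrin, stood at 234 CPM in GS-KO and 206 CPM in control, but 1 GS-KO cell held 46.1% of its UMIs, and without the 6 cells its ratio was 0.689. Cd36, a fatty acid receptor, stood at 1234 CPM in GS-KO and 893 CPM in control (1.38-fold, 1.24 to 1.54). On the central side, Wnt2 gave 36 UMIs in 15 GS-KO cells and 42 UMIs in 17 control cells, a ratio of 0.804 with an interval of 0.5 to 1.29. Rspo3 gave 3 UMIs in GS-KO and 15 in control, with 66.7% of the control UMIs in 1 cell, too few for a level. Kit, a growth factor receptor of pericentral sinusoids, stood at 183 CPM in GS-KO and 109 CPM in control (1.68-fold, 1.24 to 2.3). Of 6 pericentral genes measured, 1 was at least 1.5-fold higher and 3 were lower, and of 10 periportal genes 1 was that much higher and 1 lower. Without the 6 cells, 1 of 6 pericentral genes was higher and 2 lower. Of 9 periportal genes 2 were then higher and 2 lower, and their median log2 ratio went from 0.03 to -0.34. Wnt2 and Dll4 were found together in 8 of the 15 Wnt2-positive cells of GS-KO and 3 of 17 of control, at unequal depths.

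Endothelium of larger vessels was sparse. Vwf, the clotting factor carrier of veins and arteries, gave 6 UMIs in 4 GS-KO cells and no UMI in control. Large vein genes together reached 4 UMIs from 2 genes in 44 GS-KO and 48 control cells, but the group includes Vcam1 and other genes that sinusoidal cells also use. Artery genes did so in 19 GS-KO and 21 control cells, but that list includes Efnb2, also a periportal gene. These counts therefore do not number arterial cells. The lymphatic genes not shared with sinusoids gave 2 UMIs in GS-KO and 3 in control, and Prox1 and Pdpn none. No cell reached 4 UMIs from 2 of them. The list of arterial genes had a median log2 ratio of 2.38 and 9 of 11 genes at least 1.5-fold higher in GS-KO. The arterial cell described above held 60.3% of the GS-KO UMIs of the artery list, and without the 6 cells that median was 0.15. Mgp, a matrix protein of larger vessels and fibroblasts, gave 191 UMIs in GS-KO and none in control, and 178 of them lay in 1 of the cells led by Igfbp7.

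**Figure D2:**
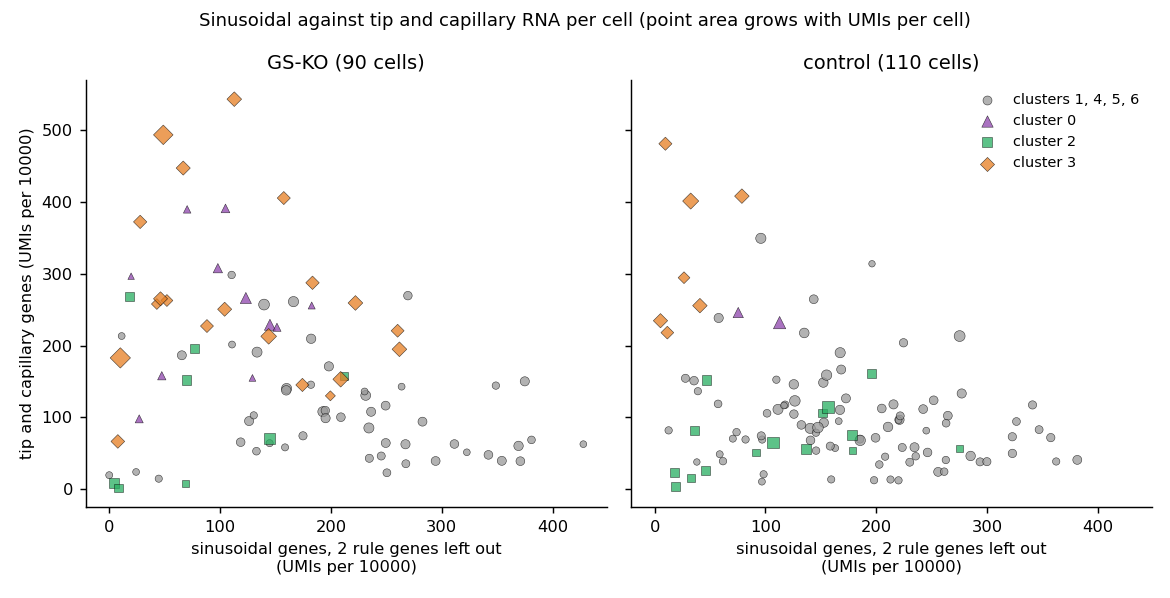
Each point is 1 endothelial cell, with GS-KO on the left and control on the right. The horizontal axis gives UMIs per 10000 from sinusoidal genes outside the rule, the vertical axis UMIs per 10000 from tip and capillary genes, and point area grows with the UMIs of the cell. Cells of cluster 3 (orange) lie mostly high on the vertical axis, and clusters 1, 4, 5 and 6 (grey) spread along the sinusoidal axis in both libraries.

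Tip cell genes were higher in GS-KO over all cells, but within clusters 1, 4, 5 and 6, described below, their median log2 ratio was 0.15. Over all clusters other than 3, 70 GS-KO and 103 control cells, it was 0.34, with 6 of 14 at least 1.5-fold higher and 1 lower. Of 14 tip and angiogenic genes measured, 9 were at least 1.5-fold higher and none was lower, with a median log2 ratio of 0.86. Without the 6 cells the median was 0.61, with 7 higher and 1 lower. Esm1, a secreted proteoglycan induced by VEGF, stood at 1068 CPM in GS-KO and 722 CPM in control (1.48-fold, 1.31 to 1.67), in 41 GS-KO and 34 control cells. Angpt2, a ligand of the Tie2 receptor that loosens vessels, stood at 339 CPM in GS-KO and 156 CPM in control (2.18-fold, 1.71 to 2.8). Adm, the vasodilator peptide adrenomedullin, stood at 320 CPM in GS-KO and 74.6 CPM in control (4.28-fold, 3.1 to 6.03), in 39 GS-KO and 25 control cells. In cells thinned to 1000 UMIs, Adm was seen in 24.7% of GS-KO and 5.83% of control cells, and in no B cell of either library. Nid2, a basement membrane protein, had a ratio of 1.97. Kcne3, a potassium channel subunit, had a ratio of 2.02 over all cells but a log2 ratio of -0.57 within those 4 clusters. Fabp4, which leads the genes of these cells, stood at 6370 CPM in GS-KO and 3421 CPM in control (1.86-fold, 1.77 to 1.96). Plvap, the diaphragm protein of capillary pores, had a ratio of 1.99 over all cells and 1.34 without the 2 deepest, and its log2 ratio was -0.27 when cells were thinned to 1000 UMIs before summing. Cd34 was lower in GS-KO, with a ratio of 0.83. Tip genes were also higher in C1q-rich cells, those over the macrophage cut-off, with a median log2 ratio of 2.62 (8 of 12 at least 1.5-fold higher). Over all other kept cells the median was 2.44 (10 of 13 higher and 1 lower). Pan-endothelial genes had medians of 1.73 and 1.48 in those 2 sets. The tip medians were 0.35 in B and -0.43 in T cells, from 3 genes each, and 0.62 in cells rich in hepatocyte RNA. Within the endothelial cells, 34 of the 41 GS-KO cells with Esm1 also held Stab2, as did 22 of 34 in control. Of all endothelial cells, 70 of 90 in GS-KO and 79 of 110 in control held Stab2. The shares among cells with Esm1 thus lay near those of all cells.

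Tip cell values were therefore also taken by cluster. Clustering the 200 cells gave 7 clusters, called here by number. A listed gene is said to be met by a cluster where its level was at least 2-fold that in the other endothelial cells and at least 20% of the cells of the cluster held it. Cluster 3 met the most tip genes and held 20 GS-KO and 7 control cells, among them 2 of the 4 cells led by Igfbp7 and both of the deepest GS-KO cells. Its leading genes were Igfbp3, Cavin3, Prss23, Sema3g and Tmem252 with the fibroblast collagen genes Col3a1, Col1a1 and Col1a2, of which 1 cell held 82.9% to 92.1% of the UMIs. Its median cell gave 258 of 10000 UMIs to tip and capillary genes and 66.7 to sinusoidal genes. Clusters 1 and 4 met 8 and 7 sinusoidal genes. Clusters 5 and 6 met no sinusoidal gene, with Cd36 as the only vessel gene met in cluster 5 and hepatocyte genes such as Alb and Ttr and the pericyte gene Rgs5 met in cluster 6. In clusters 1, 4, 5 and 6 together, 51 GS-KO and 86 control cells, the medians by cluster ran over 50.8 to 138 for tip and capillary genes and 101 to 235 for sinusoidal genes. Within these 4 clusters Esm1 had a ratio of 0.949 (0.769 to 1.17) and Angpt2 of 1.16 (0.802 to 1.68). Within cluster 3, Esm1 had a ratio of 0.785. Without the 6 cells, cluster 3 held 17 GS-KO and 6 control cells, and Esm1 had a ratio of 0.834 (0.685 to 1.02). The tip genes there had a median log2 ratio of -0.30, with 4 of 14 at least 1.5-fold higher and 4 lower. The sinusoidal genes there had a median of 2.43, with 15 of 18 that much higher and none lower. The cluster 3 cells of the 2 libraries thus differed in sinusoidal level, and ratios within the cluster compare unlike cells. The higher summed level of Esm1 was not found within either set of cells. Esm1 is among the tip genes that cluster 3 met, so sorting cells into clusters tends to even out its level within them. Where the summed difference lies was therefore not tested, and clusters 0 and 2 are in neither set. Adm was different, with ratios of 2.13 (1.39 to 3.29) in clusters 1, 4, 5 and 6 and 17.7 (4.79 to 147) in cluster 3, where control UMIs were few. Cluster 3 without the 6 cells gave 102 Adm UMIs over its 17 GS-KO cells and 2 over its 6 control cells. The clusters were drawn from the same genes, so their sizes are not compared between the libraries. Cluster 0, with 11 GS-KO and 2 control cells, was led by the platelet genes Ppbp, Gp9 and Pf4. Pf4 stood at 180 CPM in GS-KO and 74.6 CPM in control, with a log2 ratio of -0.25 within clusters 1, 4, 5 and 6. Of the cells with Pf4, 19 of 23 in GS-KO and 15 of 19 in control also held Stab2, beside 70 of 90 and 79 of 110 of all cells. Cluster 2, with 8 GS-KO and 15 control cells, was led by the immune genes Ccl5, Cd52, Cd74 and H2-Ab1. It also met the 3 C1q genes, 7 macrophage genes, all 7 hepatocyte genes of the rule and 17 further hepatocyte genes.

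Of all genes measured, 4.21% were at least 2-fold higher in GS-KO and 4.55% at least 2-fold lower. Edn1, the vasoconstrictor peptide endothelin 1 (chr13:42301476-42307990 in mm10), had 108 UMIs in 21 GS-KO cells and 4 UMIs in 2 control cells. That is 164 CPM in GS-KO and 6.49 CPM in control (25.3-fold, 9.61 to 94.6), and 21-fold (7.86 to 79.1) without the 6 cells. The cell with the most Edn1 held 18.5% of the GS-KO UMIs. Of the 21 cells, 17 also held Esm1, and 90 of the 108 UMIs came from cluster 3, where the control cells had none. Cluster 3 without the 6 cells gave 55 UMIs over its 17 GS-KO cells and none over its 6 control cells. Those cells also differed in sinusoidal level, as given above. Edn1 is also listed among large vein genes. In clusters 1, 4, 5 and 6 it gave 14 UMIs in GS-KO and 3 in control (7.24-fold, 2.02 to 39.3). Thinned to 1000 UMIs, 7.41% of GS-KO cells (2.77 to 15.4) and 0.971% of control cells (0.0246 to 5.29) showed it, intervals that overlap. No Edn1 UMI was found in the B or T cells of either library, which were picked by fixed gene rules and numbered 121 and 79 in GS-KO and 473 and 278 in control.

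Other genes at least 2-fold higher in GS-KO were found in more cells. Gpx3, the secreted glutathione peroxidase (chr11:54902453-54910377), stood at 405 CPM in GS-KO and 50.3 CPM in control (8.05-fold, 5.54 to 12.1), in 35 GS-KO and 12 control cells. Depp1, a protein induced by FOXO factors and by fasting (chr6:116650609-116652794), stood at 909 CPM in GS-KO and 159 CPM in control (5.71-fold, 4.61 to 7.15), in 44 GS-KO and 19 control cells. Without the 6 cells the ratios of Gpx3 and Depp1 were 8.65 and 5.32, and within clusters 1, 4, 5 and 6 they were 5.8 and 3.55. In C1q-rich cells, macrophages by this mark (88 in GS-KO and 1321 in control), Gpx3 had a ratio of 1.9. Ly6c1, Mal, Igfbp3, Gsn and Tmem252 also stood at least 2-fold higher, but 1 GS-KO cell held 59.8% to 89.1% of the UMIs of each. Without the 6 cells their ratios were 1.15, 0.959, 0.374, 0.921 and 0.575. Of the 301 genes at least 2-fold higher, 207 remained so without the 2 deepest GS-KO cells, and of the 325 lower, 253.

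**Figure D3:**
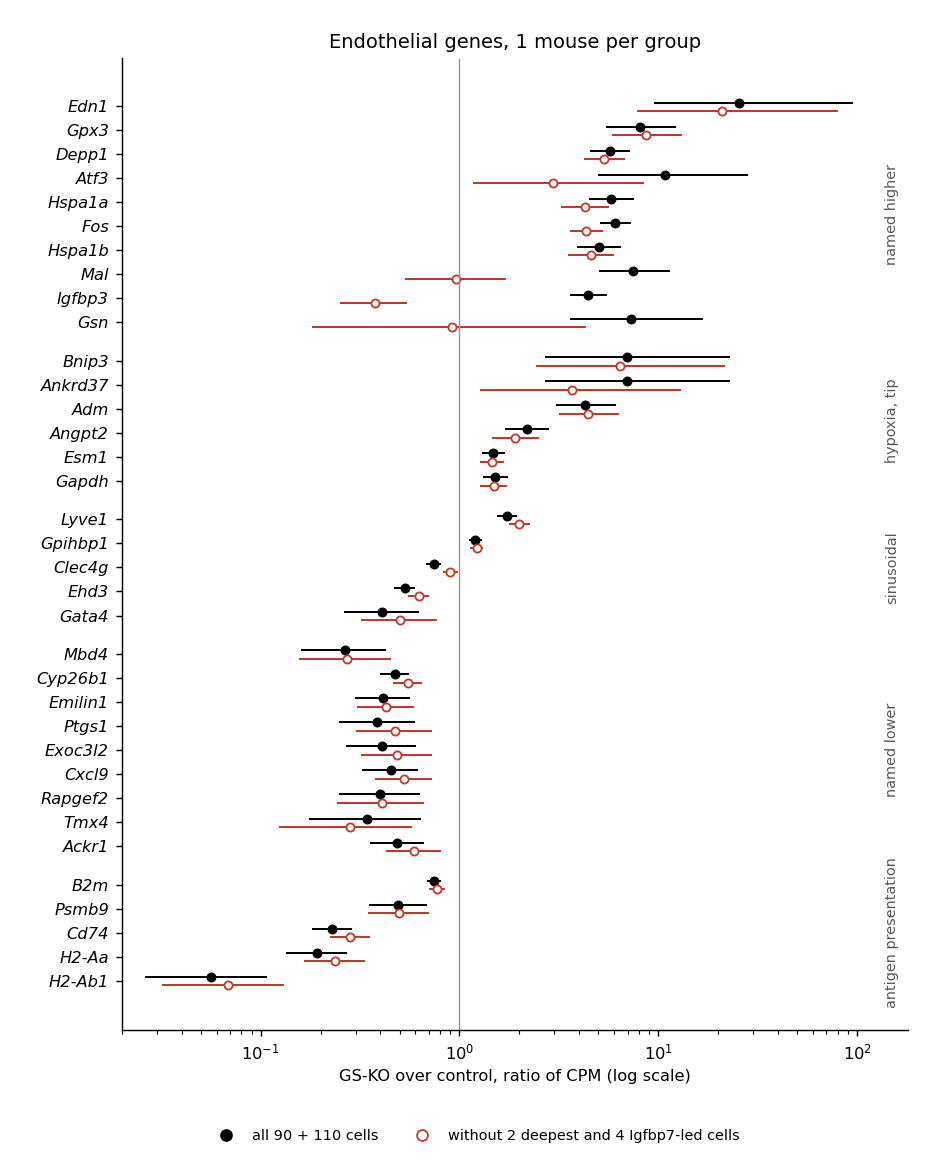
Ratio of CPM, GS-KO over control, on a log scale for named endothelial genes, with lines for 95% conditional binomial intervals. Black points use all 90 GS-KO and 110 control cells, and open red points leave out the 2 deepest GS-KO cells and the 4 cells led by Igfbp7. Edn1, Gpx3 and Depp1 stay well right of 1 both ways, whereas Mal, Igfbp3 and Gsn lie below 1 without the 6 cells.

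Genes that respond to flow and to vascular tone differed one by one. Klf2, the transcription factor induced by laminar flow, stood at 765 CPM in GS-KO and 279 CPM in control, but 1 GS-KO cell, the arterial one, held 43.3% of its UMIs. Without the 6 cells its ratio was 1.72 (1.41 to 2.1) and that of Klf4 2.88 (1.58 to 5.5). S1pr1, the receptor of sphingosine 1-phosphate, stood at 297 CPM in GS-KO and 120 CPM in control (2.47-fold), and at 1.99-fold without the 6 cells. Of 15 flow genes 6 were at least 1.5-fold higher and 2 lower, with a median log2 ratio of 0.31 over all cells. Leaving out the 6 cells, 5 of 13 were that much higher and 5 lower, with a median of 0.10. VEGF receptors and co-receptors were split: Flt1, the decoy receptor, stood at 721 CPM in GS-KO and 501 CPM in control (1.44-fold, 1.24 to 1.67), whereas Nrp1 had a ratio of 0.721, with a log2 ratio of 0.18 in thinned cells, and Nrp2 of 0.65. Of 10 angiocrine genes, signals to hepatocytes, 2 were at least 1.5-fold higher and 3 lower, with a median log2 ratio of -0.23, and without the 6 cells 1 of 8 was higher and none lower, with a median of 0.05. The ratios were 0.899 for Bmp2, 0.563 for Bmp6 and 0.635 for Hgf, the last of which had a log2 ratio of 0.71 in thinned cells. Bmp2 and Bmp6 are the BMP ligands through which these cells set hepcidin in hepatocytes.

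Genes of glycolysis and of the response to low oxygen were higher in GS-KO as a group, mostly at low counts. Of 16 measured, 7 were at least 1.5-fold higher and none was lower, with a median log2 ratio of 0.55, and of 0.42 within clusters 1, 4, 5 and 6. Without the 6 cells the median was 0.49, with 6 of 15 higher and 1 lower. Bnip3, a receptor for mitophagy, gave 37 UMIs in 17 GS-KO cells and 5 UMIs in 4 control cells (6.94-fold, 2.72 to 22.6; without the 6 cells 6.44). Ankrd37, a target of hypoxia-inducible factor (HIF), gave the same UMI totals, but 1 GS-KO cell held 56.8% of them, and without the 6 cells its ratio was 3.68. Egln3, a HIF prolyl hydroxylase, gave 22 UMIs in GS-KO and 6 in control, Slc2a1, a glucose transporter, 14 in GS-KO and 2 in control, and Vegfa 19 in GS-KO and 3 in control. The glycolytic genes differed less at far higher counts. Gapdh stood at 857 CPM in GS-KO and 566 CPM in control (1.51-fold, 1.32 to 1.73), Pgk1 at 224 CPM in GS-KO and 143 CPM in control (1.57-fold) and Ldha at 379 CPM in GS-KO and 287 CPM in control (1.32-fold). In the other cells of the same libraries the group's median log2 ratio was -0.00253 in B cells, -0.25 in T cells and 0.27 in C1q-rich cells, where all genes measured had medians of -0.22, -0.21 and -0.10. The group was higher outside endothelium too, with a median of 0.52 in cells rich in hepatocyte RNA (7 of 16 higher and 1 lower) and of 0.60 over all other kept cells together (10 of 19 higher and none lower). Bnip3 had a ratio of 1.82 in B cells, 0.46 in T cells and 0.97 in C1q-rich cells. HIF binds DNA at the letters ACGTG or GCGTG, so the promoters of the Bnip3 and Ankrd37 genes are shown, as the members of the group with the highest ratio. Each runs over the 250 bases before the first listed start site, from RefSeq on GRCm38.p6, on the minus strand, chr7:138909507-138909756 for Bnip3 and chr8:45999851-46000100 for Ankrd37. Capitals mark ACGTG on either strand, which in Bnip3 overlaps itself as the palindrome CACGTG.
Bnip3: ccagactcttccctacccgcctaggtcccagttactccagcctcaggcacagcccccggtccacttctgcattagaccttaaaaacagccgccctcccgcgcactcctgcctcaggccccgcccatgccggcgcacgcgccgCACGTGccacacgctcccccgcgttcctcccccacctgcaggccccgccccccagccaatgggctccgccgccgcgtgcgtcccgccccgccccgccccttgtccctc
Ankrd37: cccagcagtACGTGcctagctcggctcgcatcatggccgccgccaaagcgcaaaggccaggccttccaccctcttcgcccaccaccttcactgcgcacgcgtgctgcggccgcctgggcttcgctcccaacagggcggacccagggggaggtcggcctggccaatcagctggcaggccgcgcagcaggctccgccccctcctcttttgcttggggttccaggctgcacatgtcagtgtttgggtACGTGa
The motif ACGTG was found in this window for 7 of the 16 genes of the group, 5 of the 7 that were at least 1.5-fold higher and 2 of the other 9, and in 16.6% of 27025 mouse promoters of the same length. GCGTG was found for 7 of the 16, 3 of the 7 and 4 of the other 9, and in 28.2% of all promoters. A match describes the sequence and does not show that a factor was bound.

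**Figure D4:**
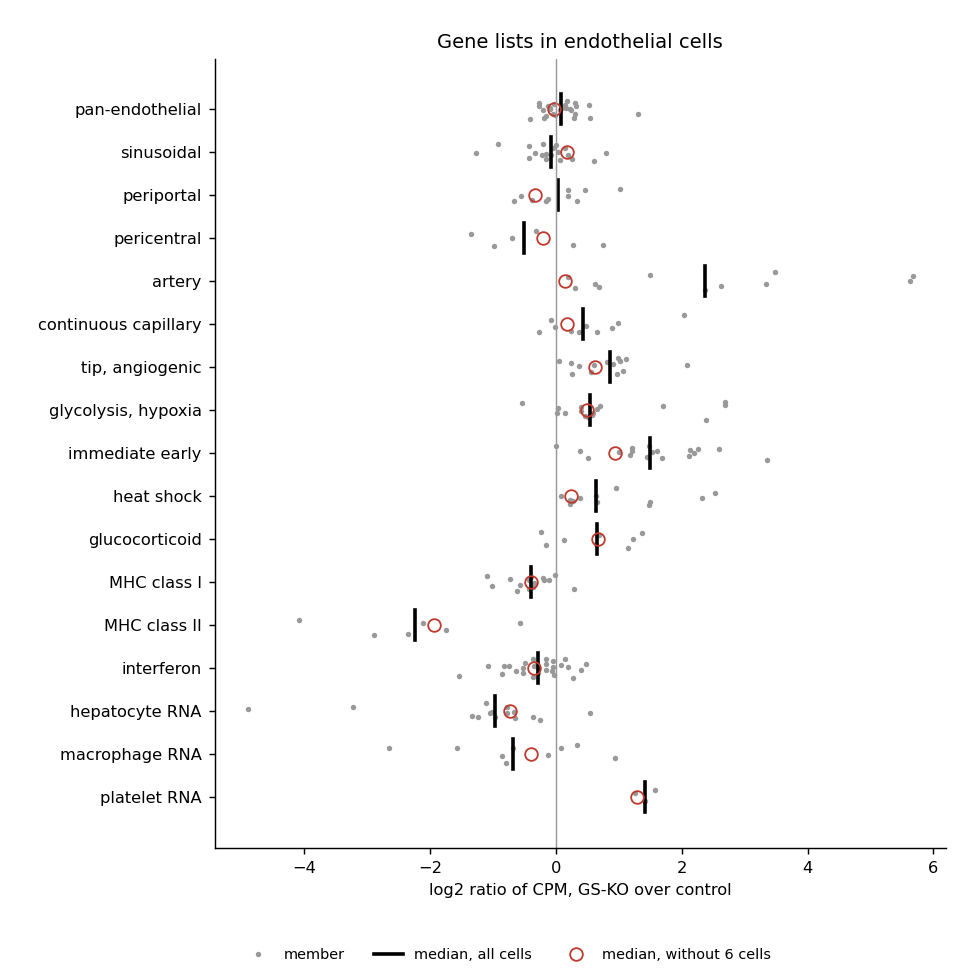
Log2 ratio of CPM, GS-KO over control, for every member gene with at least 20 UMIs (grey points) of each list, with the median over all cells (black bar) and without the 6 cells (red circle). The immediate early and tip lists lie right of 0 and MHC class II left of it both ways, whereas the artery median is 2.38 over all cells and 0.15 without the 6.

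Immediate early and heat shock genes were higher in the GS-KO endothelial cells, and several were also higher in the B, T and C1q-rich cells of that library. In cells rich in hepatocyte RNA the groups were not higher: immediate early genes had a median log2 ratio of -0.12, with 4 of 19 at least 1.5-fold higher and 7 lower, and heat shock genes of -0.24, with none of 12 higher and 5 lower. Of 18 immediate early genes 15 were at least 1.5-fold higher and none was lower, with a median log2 ratio of 1.5, and of 0.93 without the 6 cells. Fos, a subunit of the AP-1 factor, stood at 1601 CPM in GS-KO and 265 CPM in control (6.05-fold, 5.13 to 7.18), with 33.6% of the GS-KO UMIs in the arterial cell and a ratio of 4.35 without the 6 cells. Its ratio was 4.08 in B cells, 3.87 in T cells and 3.61 in C1q-rich cells. Jun, its partner, had ratios of 2.72 in endothelial, 2.24 in B, 1.28 in T and 2.13 in C1q-rich cells. Among heat shock genes, 7 of 12 were at least 1.5-fold higher, with a median log2 ratio of 0.64. Leaving out the 6 cells, 4 of 12 were, with a median of 0.25. Hspa1a and Hspa1b are near-identical copies of the inducible Hsp70 gene, so reads can be split between them. Hspa1a stood at 703 CPM in GS-KO and 122 CPM in control (5.78-fold, 4.52 to 7.48) and Hspa1b at 667 CPM in GS-KO and 133 CPM in control (5.01-fold, 3.95 to 6.42). In B cells their ratios were 8.61 and 11.4. Thinned to 1000 UMIs, Hspa1a was seen in 32.1% of GS-KO and 4.85% of control endothelial cells, and in 29.2% of GS-KO and 3% of control B cells. The part that a state common to the whole library played in these values was not tested. Of 9 genes induced by glucocorticoids 6 were at least 1.5-fold higher, with a median log2 ratio of 0.65, beside 0.48 in B, 0.41 in T and 1.07 in C1q-rich cells. Pdk4, which holds back glucose oxidation, stood at 54.8 CPM in GS-KO and 24.3 CPM in control (2.25-fold, 1.2 to 4.42). The promoter of Hspa1a (chr17:34972157-34972406, minus strand, 250 bases before the start) is shown with the heat shock factor letters GAANNTTC in capitals, a palindrome found in 6.78% of all promoters of this length.
Hspa1a: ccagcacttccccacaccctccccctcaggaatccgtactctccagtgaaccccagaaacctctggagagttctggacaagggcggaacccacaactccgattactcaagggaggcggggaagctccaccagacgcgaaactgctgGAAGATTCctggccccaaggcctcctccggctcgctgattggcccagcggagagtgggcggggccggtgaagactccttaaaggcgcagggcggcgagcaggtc
That of Hspa1b carries the same letters at the same place, 104 bases before the start.

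**Figure D5:**
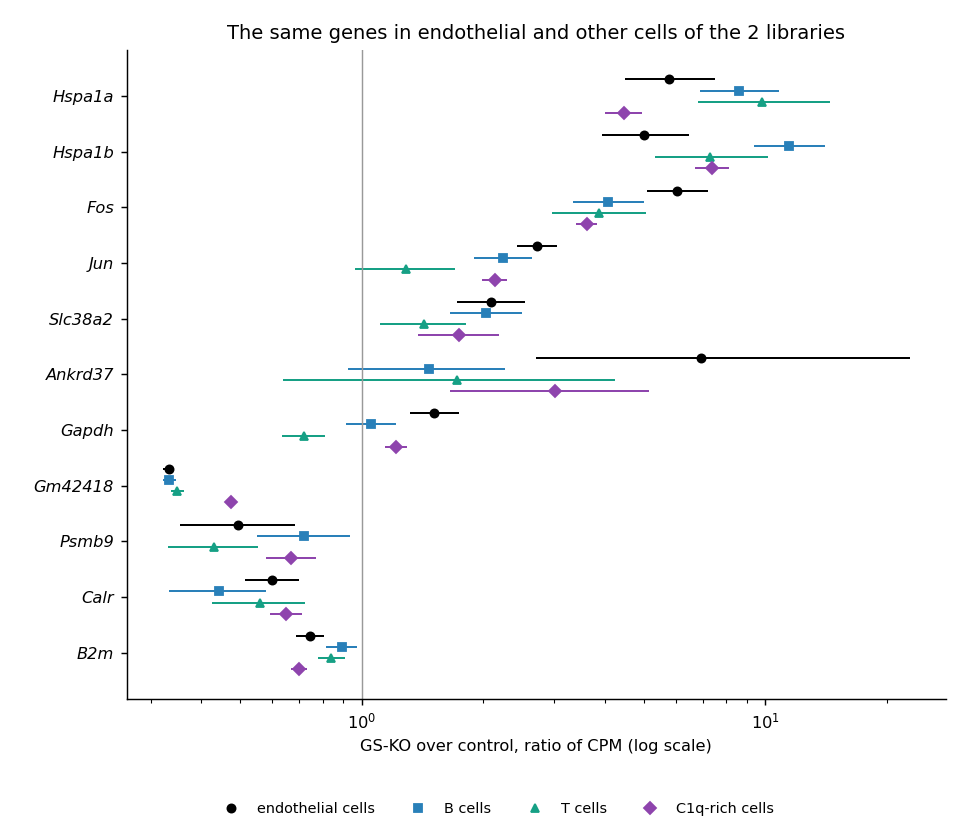
Ratio of CPM, GS-KO over control, on a log scale for the same genes in endothelial cells (black), B cells (blue squares), T cells (green triangles) and C1q-rich cells (purple diamonds), with 95% conditional binomial intervals. Hspa1a, Hspa1b and Fos lie right of 1 and Gm42418 and Psmb9 left of 1 in all 4, while Ankrd37 and Gapdh are higher in endothelial cells than in the others shown, though the interval of Ankrd37 overlaps that of C1q-rich cells.

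Scavenging and lipid handling showed single genes apart. Ctsl, a lysosomal protease, stood at 2532 CPM in GS-KO and 1285 CPM in control (1.97-fold, 1.81 to 2.15), in 82 GS-KO and 89 control cells, and at 2.3-fold without the 6 cells. Dab2, an adaptor for receptor uptake, stood at 195 CPM in GS-KO and 346 CPM in control, a ratio of 0.564 (0.449 to 0.705), but its log2 ratio was 0.038 in thinned cells. Fabp5, a fatty acid carrier like Fabp4, stood at 2080 CPM in GS-KO and 1326 CPM in control (1.57-fold, 1.44 to 1.71). Of 9 lipid genes 3 were at least 1.5-fold higher and none lower, with a median log2 ratio of 0.47. Among glutamine and amino acid genes, Slc38a2, a glutamine importer that cells raise when amino acids are scarce, stood at 555 CPM in GS-KO and 266 CPM in control (2.09-fold, 1.73 to 2.52). Its ratio was 2.03 in B, 1.42 in T and 1.75 in C1q-rich cells, so the difference was also seen outside endothelium. Glul itself stood, in the endothelial cells, at 158 CPM in GS-KO and 239 CPM in control (ratio 0.663, 0.511 to 0.859), and had a log2 ratio of 0.40 within clusters 1, 4, 5 and 6, so its direction turned with the cells used. Hepatocyte genes other than those of the rule, which endothelial cells do not make, summed to 472 CPM in GS-KO and 966 CPM in control, with 12 of 15 measured at least 1.5-fold lower. The share of the Glul level that came with such RNA was not tested.

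MHC class I and class II genes were lower in GS-KO, and interferon genes less so. Of 15 genes of MHC class I presentation, the pathway that shows internal peptides to CD8 T cells, none was at least 1.5-fold higher and 4 were lower, with a median log2 ratio of -0.39 and of -0.40 without the 6 cells. B2m, the shared light chain, stood at 1898 CPM in GS-KO and 2549 CPM in control (ratio 0.744, 0.69 to 0.802), in 83 GS-KO and 107 control cells. Psmb9, an immunoproteasome subunit induced by interferon, stood at 92.8 CPM in GS-KO and 188 CPM in control (0.493, 0.356 to 0.678). B2m had a ratio of 0.89 in B, 0.84 in T and 0.70 in C1q-rich cells, and Psmb9 of 0.72, 0.43 and 0.67. The class I list had median log2 ratios of -0.37 in B, -0.34 in T and -0.61 in C1q-rich cells. All genes measured had medians of -0.22, -0.21 and -0.10 there. Within endothelial clusters 1, 4, 5 and 6 none of the 15 class I genes was at least 1.5-fold lower, with a median of -0.22. Of 29 interferon genes 6 were at least 1.5-fold lower and none higher, beside the 13.8% of all genes that were lower. Their median log2 ratio was -0.29 in endothelial cells, but 0.02 when every cell weighed the same, and -0.62, -0.65 and -0.53 in B, T and C1q-rich cells. MHC class II genes, which show taken-up proteins to CD4 T cells, had 5 of 6 at least 1.5-fold lower in GS-KO and a median log2 ratio of -2.24. Cd74, the invariant chain, stood at 157 CPM in GS-KO and 683 CPM in control (0.229, 0.183 to 0.285), in 19 GS-KO and 57 control cells, with 64.1% of the GS-KO and 51.3% of the control UMIs in 1 cell. H2-Ab1, a class II chain, gave 10 UMIs in 6 GS-KO cells and 167 UMIs in 28 control cells. Macrophage and hepatocyte RNA was lower in GS-KO as well. Lyz2, a macrophage gene, stood at 59.4 CPM in GS-KO and 378 CPM in control, and the 12 macrophage genes of the list, none at 0 in either library, summed to 560 CPM in GS-KO and 938 CPM in control. Of the 9 with at least 20 UMIs, 1 was at least 1.5-fold higher and 5 were lower, with a median log2 ratio of -0.68. In T cells, which do not make class II in mice, Cd74 was seen in 1.28% of GS-KO and 10.1% of control cells thinned to 1000 UMIs, beside 6.17% of GS-KO and 20.4% of control endothelial cells. Without cluster 2 the class II median was -1.37. Other marker lists ran both ways. Higher were neutrophil genes, with 59 UMIs in GS-KO and 7 in control, and T and NK cell genes, with 114 and 50. So were platelet genes, with 194 in GS-KO and 77 in control, and erythroid genes, with 32 and 12. Lower were B cell genes, with 21 in GS-KO and 102 in control, and monocyte genes, with 62 and 109. Stellate cell and fibroblast genes were lower too, with 553 in GS-KO and 807 in control. Of the T and NK UMIs, 1 cell held 96.5% in GS-KO and 84% in control. For B cell genes 1 cell held 52.4% and 61.8%, and for neutrophil genes 71.2% in GS-KO. Within clusters 1, 4, 5 and 6 the 5 macrophage genes measured had a median log2 ratio of 0.47, with 1 at least 1.5-fold higher and 1 lower. The 3 C1q genes, which the rule limits, had a median of -0.49 there. The 4 class II genes measured there had a median of -1.18, at low counts. H2-Ab1 gave 3 UMIs in GS-KO and 19 in control, and Cd74 gave 21 in GS-KO and 56 in control. How much of the class II level came with RNA of other cells was not tested.

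Other genes were lower in GS-KO over all cells, some of them less so within clusters 1, 4, 5 and 6. Cyp26b1, which breaks down retinoic acid, stood at 376 CPM in GS-KO and 794 CPM in control (ratio 0.474, 0.405 to 0.553), in 41 GS-KO and 67 control cells, and had a ratio of 0.781 (0.656 to 0.927) within those 4 clusters. Emilin1, a glycoprotein of elastic fibres, stood at 98.9 CPM in GS-KO and 240 CPM in control (0.412, 0.303 to 0.555). Ackr1, a chemokine-binding receptor of venules, stood at 105 CPM in GS-KO and 216 CPM in control (0.487, 0.358 to 0.656), and Cxcl9, a chemokine induced by interferon gamma, at 95.9 CPM in GS-KO and 213 CPM in control (0.451, 0.328 to 0.614). Ptgs1, the constitutive cyclooxygenase, stood at 50.2 CPM in GS-KO and 130 CPM in control (0.387, 0.25 to 0.587), with a ratio of 0.648 (0.38 to 1.07) within the 4 clusters. Mbd4, a DNA glycosylase, had a ratio of 0.265, and of 0.573 (0.308 to 1.02) within them. Other ratios within the 4 clusters were 0.57 for Emilin1, 0.517 for Ackr1 and 0.269 for Cxcl9. Rapgef2, an activator of Rap, had a ratio of 0.4. Gm42418, a gene model that overlaps ribosomal RNA, stood at 12747 CPM in GS-KO and 38380 CPM in control (0.332) and had a ratio of 0.33 in B, 0.35 in T and 0.47 in C1q-rich cells. The 16 cell cycle genes summed to 857 CPM in GS-KO and 1201 CPM in control. Of the 7 measured 4 were at least 1.5-fold lower in GS-KO and none higher, with a median log2 ratio of -0.61, and without the 6 cells 5 were lower and the median was -0.92. Mcm6, a replication helicase subunit, gave 6 UMIs in GS-KO and 22 in control. The respiratory chain genes had a median log2 ratio of 0.03.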

How the data were processed

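Single-cell 3′ libraries of 1 GS-KO and 1 control mouse were used. The deposited matrices hold UMI counts per gene and barcode for 32285 genes, made with Cell Ranger on mm10 per the submitters' processing notes (software version 3.1.0, per the file headers). The rest was computed here. UMI counts of the endothelial cells were summed per library and divided by their total to give CPM, and genes with at least 20 UMIs over both libraries were compared. Log2 ratios used a prior count of 0.5. Named genes were the 12 higher and 12 lower with at least 50 UMIs, a ratio of at least 2, ranked by the interval bound nearest 1, after leaving out genes of other cell types, plus members of the gene lists ranked by UMIs and interval. A named gene is not reported here. Vessel clusters were Leiden clusters at resolution 0.8 on 15 principal components. The members and gene lists were chosen with earlier results of these data known. Ratios and thinning were tested on simulated counts that held counting error only. Spread between cells was not simulated, so the simulated counts do not show how the intervals fare with it. Doublets were marked and not removed. Intervals cover counting error only, and PCR duplicates are collapsed only as far as UMIs allow. Python 3.11.15, numpy 2.4.6, scipy 1.17.1 and scanpy 1.11.5 were used, with gene positions from GENCODE M21 and promoters from RefSeq on GRCm38.p6.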

Additional observations from a re-analysis of the deposited data

Results flagged for a closer look

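Barcodes over the limit of 20% mitochondrial UMIs were not used, yet 13 in GS-KO and 14 in control met every other endothelial criterion, a signal in data that no comparison above uses. Their median mitochondrial share was 40.4% in GS-KO and 43.2% in control, and their median depth 4477 UMIs in GS-KO and 3631.5 in control. Clec4g was found in 8 of the 13 GS-KO barcodes and 13 of the 14 control barcodes, and Stab2 in 5 GS-KO and 3 control barcodes.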

How the results depend on the processing

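No paired analysis was possible because each group holds 1 library and no test was made. Under the other cell limits tried the shares of endothelial cells stayed within their intervals, at 12.7 to 13.4% in GS-KO and 2.89 to 3.33% in control, while their counts ran over 76 to 93 in GS-KO and 85 to 114 in control. Genes at least 2-fold apart numbered 626 (301 higher and 325 lower in GS-KO), but 1164 (497 higher and 667 lower) when every cell weighed the same, 174 (94 higher, 80 lower) when cells were thinned to 1000 UMIs before summing, 194 (118 higher, 76 lower) with at least 50 UMIs, 4683 (2120 higher, 2563 lower) with at least 1 UMI, and 191 were higher within clusters 1, 4, 5 and 6. Those clusters, and the subsets without cluster 2, without the 2 deepest GS-KO cells or without the 4 cells led by Igfbp7, were chosen after seeing the data. The median log2 ratio of immediate early genes, 1.5, became 0.81 with cells weighed the same, 0.97 thinned, 0.98 without the deepest cell of each library, 0.89 without the 2 deepest GS-KO cells and 0.74 within clusters 1, 4, 5 and 6. That of MHC class II, -2.24, became -3.85 with C1q under 0.3%, -1.37 without cluster 2 and -1.18 within those 4 clusters. Tip genes, at 0.86, came to 0.15 within them, and sinusoidal genes, at -0.09, to 0.16 both there and without the 2 deepest cells. Continuous capillary genes, at 0.42, turned to -0.030 within the 4 clusters and came to 0.080 without the 2 deepest cells. Heat shock, hypoxia and MHC class I medians stayed within 0.23 to 0.67, 0.41 to 0.58 and -0.49 to -0.22.

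Of the 83 named genes whose interval over all cells left out 1, 15 changed sign under at least 1 setting. Of the 19 whose interval held 1, 15 did, Wnt2 ranging over -0.60 to 0.49, Efnb2 over -0.56 to 0.22, Bmp2 over -0.18 to 0.14 and Eng over -0.14 to 0.20. Of the first, within clusters 1, 4, 5 and 6 these were Clec4g (0.045), Dnase1l3 (0.047), Glul (0.40), Esm1 (-0.075), Gsn (-1.40), Kcne3 (-0.57), Ly6c1 (-1.98), Pf4 (-0.25) and Plvap (-0.030). In cells thinned before summing they were Dab2 (0.038), Hgf (0.71), Nrp1 (0.18) and Plvap (-0.27). Without the 2 deepest GS-KO cells they were Igfbp3 (-0.11), Mal (-0.070) and Tmem252 (-0.60), and without the deepest cell of each library Mal (-0.12). The causes were not tested beyond what leaving out those cells shows. Under the same settings Edn1 stayed within 2.54 to 4.54, Gpx3 within 2.24 to 3.21, Depp1 within 1.82 to 2.54 and Bnip3 within 2.15 to 2.89. Without thinning, the share of cells with Edn1 differed by 21.5 percentage points, GS-KO minus control, and that with Cd74 by -30.7. Clustering at resolution 0.4 gave 3 clusters, and at 1.2 it gave 8. Depth limits genes with few UMIs, such as Rspo3, Vwf and Slc2a1, to wide intervals.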
